A study of Rattus norvegicus with 6 samples.

Results

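In the retinas of 6 rats, 40 genes differed more than 8-fold between animals of the same group. They were chosen from a deposited table of 34170 genes in FPKM, fragments scaled to gene length and to the size of the library. A gene was chosen when its mean over the 6 libraries was at least 5 FPKM and log2(FPKM + 0.5) spanned more than 3 within the 3 diabetic or within the 3 control libraries. Of the 10084 genes that reached the mean, 0.397% were chosen, and 10 more that passed both limits were left out because their names begin with Cry, Nduf, Rpl, Rps, Mrp, Cox or Atp5. The same values chose the genes and describe them here, so their ranges carry no test.

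The animals were male Sprague-Dawley rats, an outbred stock, weighing between 100.4 and 110.5 g. The 3 diabetic rats were injected intraperitoneally with streptozotocin, which destroys insulin-producing beta cells, at 60 mg/kg on each of 5 days after a fast of 12 h. They counted as diabetic when fasting glucose exceeded 16.7 mmol/L at 1 week after the last dose. The control group, labelled WT, consisted of 3 rats given citrate buffer on the same number of days. The study asks which messenger RNAs and m6A marks differ in the diabetic retina, and the m6A data were not analysed here. When the retinas were taken is not stated in the sources used here.

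As background, the retina is built mainly of rod photoreceptors, with cones, interneurons, ganglion cells and glia, and the chosen genes with a known role include ones of splicing, redox balance, iron-sulfur clusters and purine salvage, which most cell types use. A gene annotated at more than 1 place in a genome shares its sequence with copies, pseudogenes or predicted loci, and a read that matches several of them is assigned by the rules of the counting program. Small structural RNAs such as U6 of the spliceosome, 7SK and the RNA of ribonuclease P are made by RNA polymerase III and mostly lack the poly-A tail by which these libraries were selected.

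The libraries held 18330641, 16277864 and 19115426 fragments in diabetic 1, 2 and 3, against 16941864, 12417686 and 13035314 in control 1, 2 and 3. At these depths 3 fragments in a gene of 1 kb stand for 0.158 to 0.248 FPKM. Each of the 9 photoreceptor markers in the table averaged 5 FPKM or more. Of 14 lens markers, 11 were highest of the 6 libraries in control 3, where their sum was 269.2 FPKM, against 17.8 to 40.6 FPKM in the diabetic libraries and 26.2 to 38.5 FPKM in control 1 and 2. Of 19 cornea and conjunctiva markers, 16 were highest in diabetic 1 and control 2 within their groups. The sums of all 19 were 54.0 and 52.7 FPKM there, against 15.8 to 26.8 FPKM in the other libraries. Sprr1b was listed at 0 throughout. A mean of 5 FPKM was reached by 4 of the lens markers and 1 of the cornea and conjunctiva markers. The sum of 12 pigment epithelium markers was 102.7, 46.6 and 46.3 FPKM in diabetic 1, 2 and 3, against 102.5, 91.8 and 53.2 FPKM in control 1, 2 and 3. No chosen gene belonged to any of 25 lists of cell type markers and functional groups. Of all genes that reached the mean, 0.397% were chosen, so few or none would be found in lists of this size. The lists are also incomplete, as that of splicing and RNA binding lacks Rbm39. The absence is therefore no result about these classes. For the lens list it was set by the names left out: its members Cryaa, Cryba1 and Crygs passed both limits. In control 3 they measured 130.4, 57.2 and 31.7 FPKM of the lens sum. In whole retinas, fewer cells of a type and less RNA per cell cannot be told apart.

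The library that stood apart changed from gene to gene. In a group of 3, a library was taken to stand apart when its distance from the middle value was at least 2 times the distance between the other libraries, and the gene was called graded otherwise. Among the 24 genes with a wide range in the diabetic group, diabetic 2 stood apart in 11 (7 high, 4 low), diabetic 3 in 6 (4 high, 2 low) and diabetic 1 in 4 (1 high, 3 low), and 3 were graded. Among the 30 with a wide range in the control group, control 2 stood apart in 12 (7 high, 5 low), control 1 in 7 (4 high, 3 low) and control 3 in 6 (4 high, 2 low), and 5 were graded. Diabetic 2 and control 2 were therefore named most often, and each library was named at least 4 times.

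**Figure D1:**
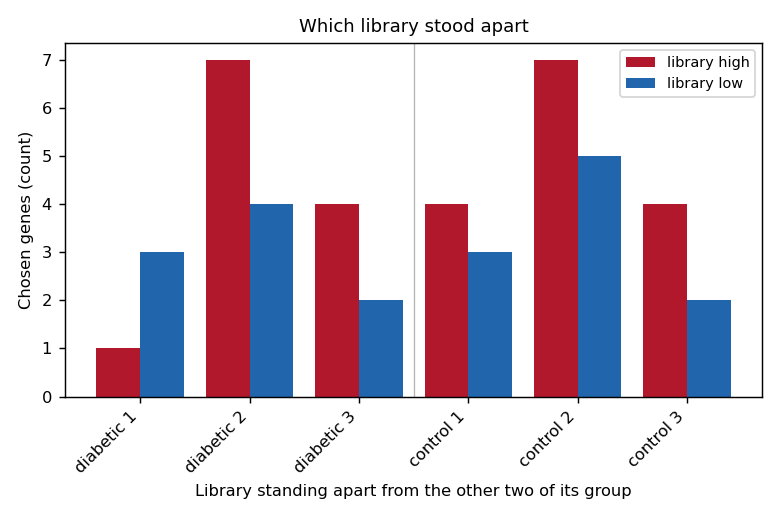
Number of chosen genes (vertical axis) for which each library (horizontal axis, diabetic left of the line, control right) stood apart from the others of its group, as the high one (red) or the low one (blue). Diabetic 2 and control 2 had the tallest red bars, 7 genes each.

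Across all 6 libraries, 17 genes had a library on its own, beyond the other 5 by more than 50% of the gene's whole range. It lay above the rest in 5 genes and below them in 12. The genes with a library above were LOC102556337 (diabetic 1), Prss56 (diabetic 2), LOC100911625 (diabetic 3), Rpph1 (control 2) and the unnamed entry on chromosome 8 (control 3). Control 2 lay below the rest in 4 genes, control 3 in 3, control 1 in 2 and each diabetic library in 1. The other 23 genes had high and low libraries in mixed arrangements. Each gene's libraries were divided at the midpoint between its highest and lowest values on the log2 scale. The 40 genes then fell into 31 different arrangements, and no arrangement held more than 4 genes. The upper side included diabetic 1, 2 and 3 in 20, 25 and 24 genes, against 19, 19 and 20 genes for control 1, 2 and 3.

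**Figure D2:**
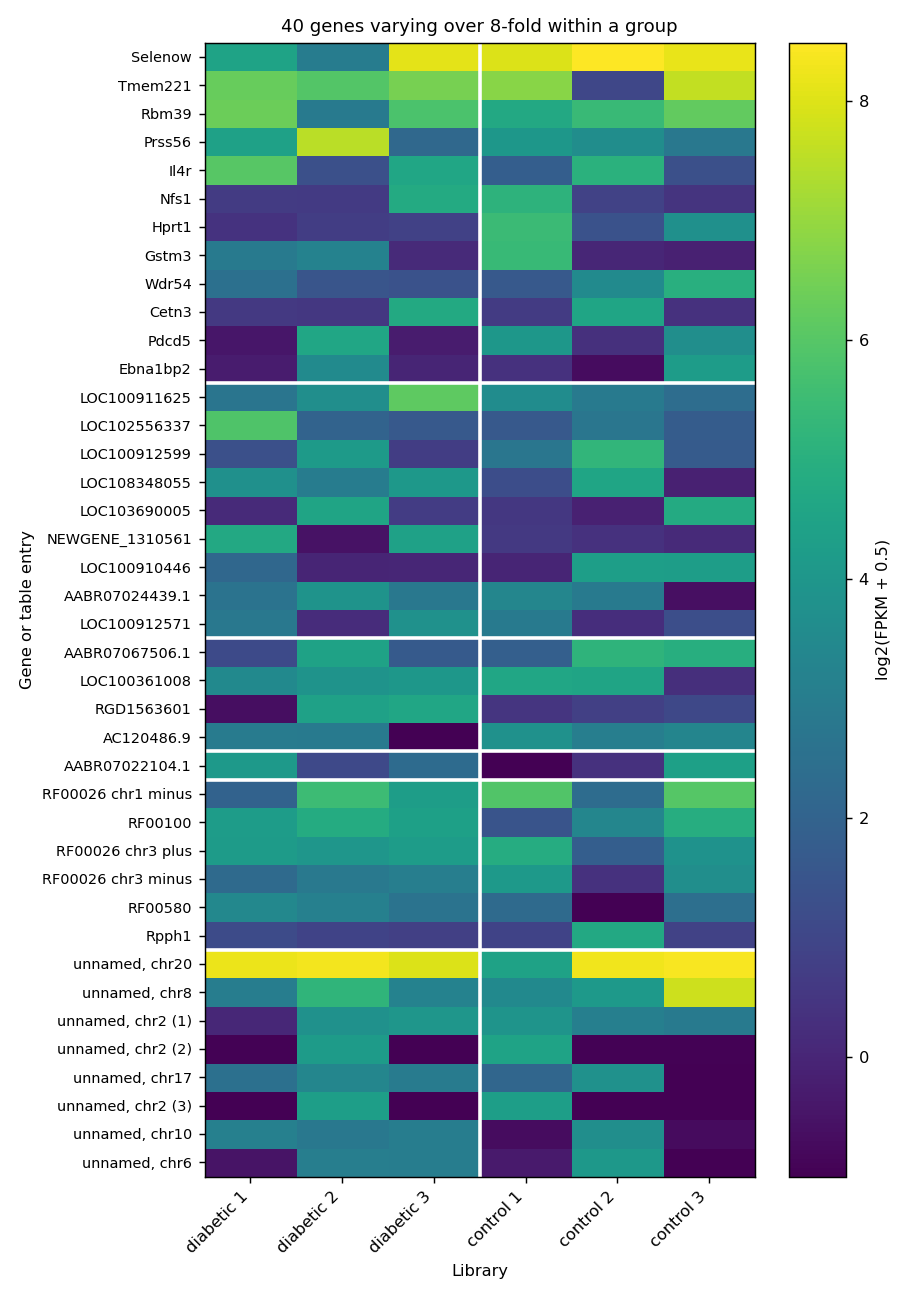
log2(FPKM + 0.5) of the 40 chosen genes (rows, grouped by class with white lines) in the 6 libraries (columns, diabetic left, control right), from dark (low) to yellow (high). High and low libraries alternate from row to row, and no column is dark or bright throughout.

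A wide range in 1 group often came with a wide range in the other. In 14 genes the range exceeded 3 in both groups, in 10 only the diabetic range did and in 16 only the control range did. Of the 24 genes with a wide diabetic range, 58.3% also had a wide control range, against 0.163% of 9804 other genes that reached the mean and whose names were kept. Of the 30 with a wide control range, 46.7% had a wide diabetic range, against 0.102% of 9798 others. The genes chosen for their diabetic range alone had a median control range of 1.03, and genes not chosen had 0.261. Those chosen for their control range alone had a median diabetic range of 0.692, and genes not chosen had 0.212.

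**Figure D3:**
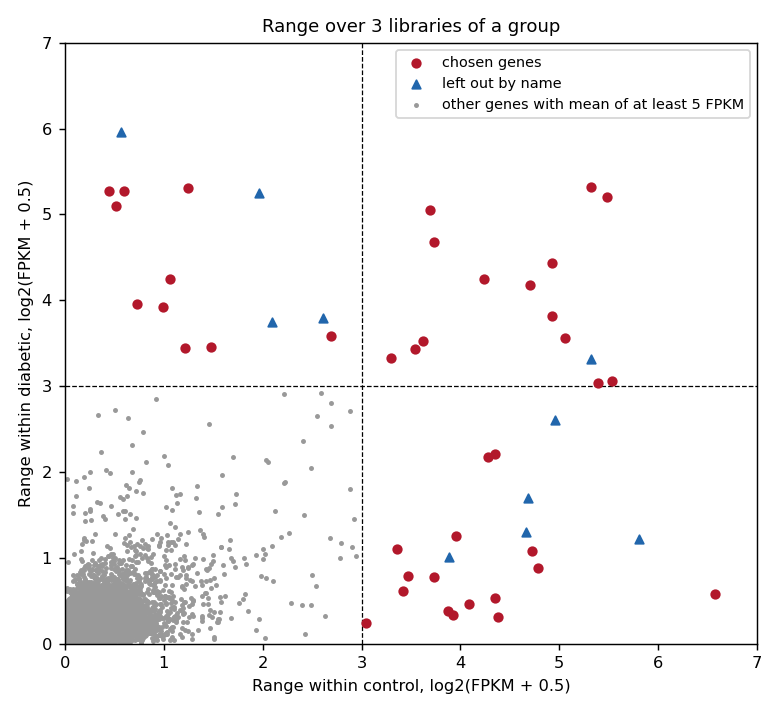
Range of log2(FPKM + 0.5) over the 3 diabetic libraries (vertical axis) against the range over the 3 control libraries (horizontal axis) for each gene averaging 5 FPKM or more; dashed lines mark the limit of 3. Chosen genes (red) lie beyond a line by construction, 14 of them beyond both, and Tmem221 lies farthest right at 6.58.

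The chosen genes were low and short by comparison, and differed in class. Their mean ran between 5.04 and 256.8 FPKM with a median of 9.49 FPKM, against a median of 18.7 FPKM for the genes not chosen, and 32 of the 40 were under 20 FPKM, against 53.0% of the genes not chosen. The median gene length was 856 nt, against 2207.5 nt. Protein-coding genes with an ordinary symbol made up 12 of the 40 (30%), against 88.0% of genes not chosen. Protein-coding genes known by a locus or clone name were 9 (22.5%, against 5.94%), unnamed entries 8 (20%, against 2.69%), short structural RNAs 6 (15%, against 2.38%), processed pseudogenes 4 (10%, against 0.408%) and long intergenic RNAs 1 (2.5%, against 0.617%). A library listed at 0 occurred in 7 of the 40 and in 0.00996% of genes not chosen. The rule nearly fixes this contrast, because a 0 beside a moderate value in the same group already exceeds the range limit. The 1 such gene not chosen, Crygc, passed both limits and was left out by name. In 34 of the 40, the highest library still rested on at least 100 fragments. These shares were not tested.

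**Figure D4:**
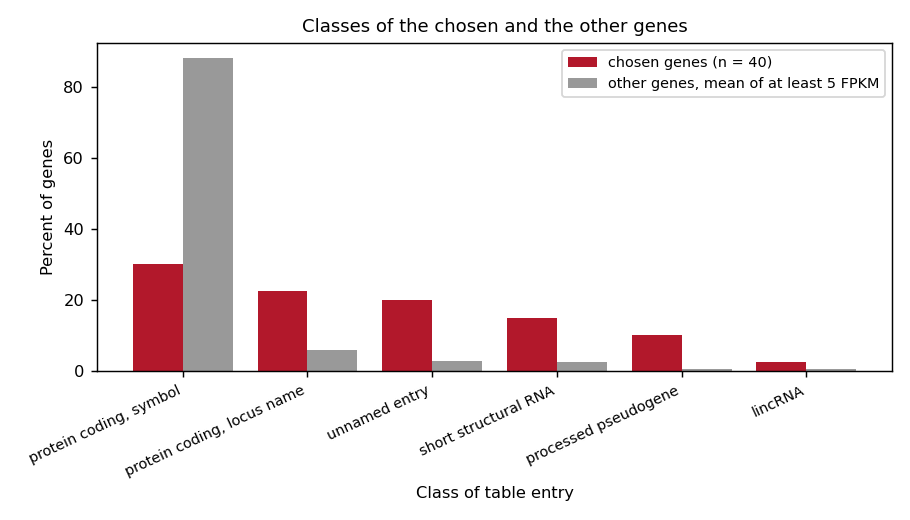
Percent of the 40 chosen genes (red) and of the other genes averaging 5 FPKM or more (grey) in each class of table entry. The chosen set holds 30% protein-coding genes with a symbol, against 88.0% of the others.

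Repeated annotation was common among them. Of 23 chosen genes with a usable description, 11 (47.8%) shared it with another entry of the table, against 5.46% of 9134 genes not chosen. Reading descriptions by hand, after the values were seen, gave 17 genes with a second entry of the same or a like product, 12 of them on the same chromosome, with the Pdcd5 pair counted from both sides. The second entry itself ranged over more than 3 in 3 cases and over no more than 1 in 8. The 3 cases were Tbcb and the Pdcd5 pair from both sides, whose entries are chosen genes and exceed 3 by the rule. The sum of both entries still ranged over more than 3 within a group in 8 of the 17. The sources used here do not say how reads of such entries were divided, so the values of single entries are uncertain.

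Among the protein-coding genes with a symbol, Selenow, selenoprotein W, a small redox protein that contains selenocysteine, was the most abundant. It measured 22.0, 7.52 and 273.5 FPKM in diabetic 1, 2 and 3, against 251.7, 359.6 and 289.0 FPKM in control 1, 2 and 3. Diabetic 3 lay within the control values and the other diabetic libraries far below them, resting on 112 and 34 fragments against 989 to 1380 elsewhere. The like entry LOC103689961 was at 0.877 to 2.34 FPKM in diabetic and 0.983 to 1.66 FPKM in control libraries. Prss56, a trypsin-like serine protease linked to eye growth in humans and mice, measured 20.9, 181.7 and 4.09 FPKM in the diabetic libraries, against 15.9, 11.9 and 6.42 FPKM in the controls. Diabetic 2 stood above every other library and diabetic 3 was the lowest, so the control values lay inside the diabetic span. The table places Selenow on the minus strand of chromosome 1 between 77533148 and 77535681, and Prss56 on the plus strand of chromosome 9 between 94279155 and 94283919; the sources used here do not name its genome build.

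Their RefSeq promoter windows, 250 bases before to 50 after the start in GRCr8, are shown because these were the protein-coding genes with a symbol that had the widest diabetic ranges. The motifs searched on both strands were the TATA box as TATAAA, the CCAAT box by its letters, the cyclic AMP response element as TGACGTCA and the GC box as GGGCGG, and matches of different motifs may overlap. Capitals mark TATAAA, 140 bases before the Selenow start (chr1:85732654-85732953, minus strand), and TGACGTCA, 36 and 16 bases before the Prss56 start farthest upstream (chr9:95289734-95290033, plus strand). Not marked are 1 GGGCGG match in the Selenow window and 1 CCAAT and 2 GGGCGG matches in the Prss56 window.
Selenow: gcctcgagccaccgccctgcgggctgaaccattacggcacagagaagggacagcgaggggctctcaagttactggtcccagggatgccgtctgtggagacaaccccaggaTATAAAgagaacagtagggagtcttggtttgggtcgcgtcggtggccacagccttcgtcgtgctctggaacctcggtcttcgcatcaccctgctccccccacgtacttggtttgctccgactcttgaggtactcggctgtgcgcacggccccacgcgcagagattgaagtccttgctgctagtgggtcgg
Prss56: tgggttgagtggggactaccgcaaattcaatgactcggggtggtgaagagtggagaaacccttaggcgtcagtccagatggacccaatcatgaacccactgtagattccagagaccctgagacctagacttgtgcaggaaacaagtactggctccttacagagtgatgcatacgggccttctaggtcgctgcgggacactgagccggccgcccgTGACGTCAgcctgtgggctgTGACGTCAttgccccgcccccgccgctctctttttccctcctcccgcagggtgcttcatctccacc
TATAAA occurred in 14.3% and TGACGTCA in 1.91% of 27457 such windows. Of the 40 genes, 11 matched a window by symbol, of which 2 held TATAAA, 4 CCAAT, 1 TGACGTCA and 5 GGGCGG, where CCAAT occurred in 37.8% and GGGCGG in 34.9% of all windows. A match is a description of letters, not of a factor.

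Tmem221, a predicted membrane protein, had the widest range of all, 6.58 in the control group. Its levels were 77.8, 61.8 and 93.0 FPKM in the diabetic libraries, against 110.9, 1.55 and 195.4 FPKM in the controls. Control 2 alone was low, on 13 fragments, and the other 5 libraries held 726 to 1736. Rbm39, an RNA-binding cofactor of splicing, measured 82.1, 7.03 and 55.4 FPKM in the diabetic libraries, against 25.8, 43.2 and 72.7 FPKM in the controls. Diabetic 2 was the low library. Its partner LOC100910882, an entry with a similar description 0.535 Mb away, measured 0.930, 3.67 and 0.723 FPKM in diabetic libraries, against 11.3, 4.68 and 1.34 FPKM in controls, and was highest in control 1, the lowest control for Rbm39.

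Il4r encodes the chain shared by the receptors for interleukins 4 and 13. It was at 64.3, 2.02 and 24.2 FPKM in the diabetic libraries, against 3.07, 32.9 and 2.02 FPKM in the controls. Diabetic 2 was the low library of its group, diabetic 1 and diabetic 3 were high with 4362 and 1629 fragments, control 2 was the high control with 1418, and the groups overlapped. Diabetic 1 and control 2 had the highest sums of the cornea and conjunctiva markers, whereas diabetic 3 had a sum of 26.8 FPKM, and Krt12, the corneal keratin, was at 6.52, 0.289 and 1.61 FPKM in diabetic libraries, against 0.479, 6.58 and 0.765 FPKM in controls. Their part in the Il4r values was not tested.

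Hprt1, the purine salvage enzyme that is often used as a steady gene in quantitative PCR, was low in all diabetic libraries at 0.800, 1.17 and 1.29 FPKM, against 44.3, 2.14 and 13.1 FPKM in the controls. Control 1 was the highest, control 2 was near the diabetic values, and the groups did not overlap. A second hypoxanthine phosphoribosyltransferase entry, LOC103689983, lay 0.426 Mb away on the X chromosome at 3.09, 0.869 and 0.952 FPKM in the diabetic libraries, against 1.73, 3.25 and 2.17 FPKM in the controls, with overlapping groups. Gstm3, a glutathione transferase of the mu class, measured 6.96, 8.75 and 0.608 FPKM in the diabetic libraries, against 41.5, 0.518 and 0.407 FPKM in the controls. Control 1 was high and the other controls were as low as diabetic 3. The related genes Gstm1, Gstm2 and Gstm4 ranged over no more than 0.753 within a group on the log2(FPKM + 0.5) scale.

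In Nfs1, Cetn3 and Ebna1bp2, a single library of each group was high while the others were low. Nfs1, the cysteine desulfurase that supplies sulfur for iron-sulfur clusters, was at 1.07, 1.03 and 27.2 FPKM in the diabetic libraries, against 34.7, 1.32 and 0.848 FPKM in the controls. Cetn3, a centrin of centrosomes and cilia, was at 0.993, 0.940 and 26.8 FPKM in the diabetic libraries, against 1.05, 23.6 and 0.776 FPKM in the controls. Ebna1bp2, a nucleolar factor of large ribosomal subunit assembly, was at 0.324, 11.1 and 0.489 FPKM in the diabetic libraries, against 0.769, 0.127 and 18.6 FPKM in the controls. The high libraries were thus diabetic 3 with control 1 for Nfs1, diabetic 3 with control 2 for Cetn3 and diabetic 2 with control 3 for Ebna1bp2, a different pair each time. The centrins Cetn2 and Cetn4 ranged over no more than 0.494. A further Nfs1 entry 0.535 Mb away reached 2.84 FPKM in control 3 and at most 0.471 FPKM in the other libraries. Wdr54, a WD repeat protein, was at 5.16, 2.32 and 2.13 FPKM in the diabetic libraries, against 2.64, 11.3 and 31.6 FPKM in the controls, with control 3 the highest and control 1 among the diabetic values.

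Pdcd5, a protein linked to programmed cell death, was present under both of its entries in the set. The entry named Pdcd5 was at 0.240, 24.1 and 0.322 FPKM in the diabetic libraries, against 15.7, 0.755 and 12.5 FPKM in the controls. The entry NEWGENE_1310561, 0.788 Mb away on chromosome 1 and described by the same product, was at 26.0, 0.184 and 21.2 FPKM in the diabetic libraries, against 1.00, 0.772 and 0.607 FPKM in the controls. In each diabetic library either the first or the second entry was high and the other was low. Their sum was 26.2, 24.3 and 21.6 FPKM in the diabetic libraries, a range of 0.28, against 16.7, 1.53 and 13.1 FPKM in the controls, a range of 3.09 in which control 2 was low for both entries.

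Other pairs of entries had other arrangements. LOC103690005, described as the tubulin-folding cofactor B, was at 0.581, 22.9 and 1.12 FPKM in the diabetic libraries, against 0.945, 0.416 and 27.3 FPKM in the controls, and the entry Tbcb was at 0.485, 0.327 and 9.33 FPKM in the diabetic libraries, against 1.14, 0.840 and 0.504 FPKM in the controls. The first was high in diabetic 2 and control 3 and the second in diabetic 3, and their sum still ranged over 3.92 in the diabetic and 4.01 in the control group. LOC102556337, like the mitochondrial fission factor, was at 58.4, 3.59 and 2.61 FPKM in the diabetic libraries, against 2.65, 6.07 and 2.86 FPKM in the controls, so that diabetic 1 was alone above the rest. The entry Mff was between 1.03 and 4.87 FPKM in the diabetic libraries, against 19.3, 2.20 and 3.57 FPKM in the controls, and was highest in control 1. LOC100910446, like the endosomal fusion protein syntaxin 7, was at 4.03, 0.480 and 0.526 FPKM in the diabetic libraries, against 0.477, 19.3 and 18.8 FPKM in the controls. Control 1 was as low as the lowest diabetic libraries, and the entry Stx7 was steadier, at 7.84, 9.77 and 7.96 FPKM in the diabetic libraries, against 7.75, 8.68 and 4.88 FPKM in the controls.

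**Figure D5:**
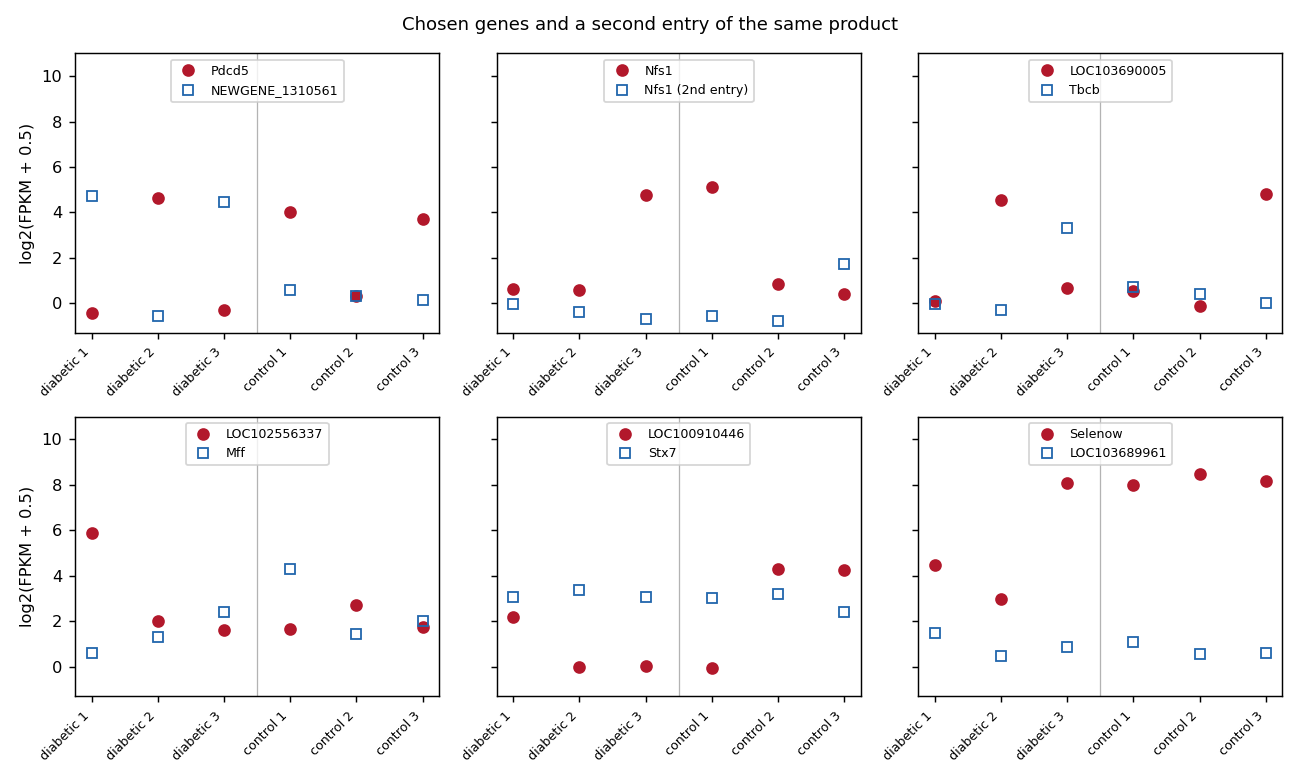
log2(FPKM + 0.5) of 6 chosen genes (filled circles) and of a second entry of the same product (open squares) in the 6 libraries, diabetic left of the grey line. For Pdcd5 and NEWGENE_1310561 the circles and squares alternate in the diabetic libraries, whereas Stx7 and LOC103689961 stay within 1.04 in each group.

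LOC100911625, described as like gamma-enolase, the neuronal form of a glycolytic enzyme, was at 5.91, 12.3 and 69.5 FPKM in the diabetic libraries, against 11.6, 6.90 and 4.73 FPKM in the controls. Diabetic 3 alone was high, and the entry Eno2 spanned 4.78 to 5.29 FPKM in diabetic and 4.96 to 6.17 FPKM in control libraries. LOC100912599, like the complex I subunit Ndufs6, was at 1.97, 17.4 and 1.16 FPKM in the diabetic libraries, against 6.06, 37.9 and 2.81 FPKM in the controls, with diabetic 2 and control 2 the high ones. The entry Ndufs6 was listed at 0 in every library except control 3, where it held 3 fragments. LOC108348055, described as B9d1, a protein of the ciliary transition zone, was at 13.0, 7.49 and 16.4 FPKM in the diabetic libraries, against 1.89, 23.4 and 0.406 FPKM in the controls. Control 2 was above and the other controls below every diabetic library, and the entry B9d1 did not exceed 0.425 FPKM in any library. LOC100912571, like the translation initiation scaffold Eif4g1, was at 6.40, 0.667 and 13.5 FPKM in the diabetic libraries, against 7.11, 0.675 and 1.96 FPKM in the controls, with diabetic 2 and control 2 the lowest of their groups. The entry Eif4g1 was at 20.1 to 20.2 FPKM in diabetic and 14.6 to 19.9 FPKM in control libraries. LOC100912571 lies within the span of Map3k13 on the same strand, which ranged over no more than 0.378. AABR07024439.1, which the table gives no description, was between 5.58 and 14.0 FPKM in diabetic libraries, against 9.78, 6.89 and 0.163 FPKM in the controls, on 1 fragment in control 3.

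The processed pseudogenes, copies of spliced transcripts in the genome, each had another arrangement. RGD1563601, a copy similar to the glycolytic enzyme Tpi1, was at 0.141, 21.3 and 24.3 FPKM in the diabetic libraries, against 0.864, 1.22 and 1.57 FPKM in the controls. Diabetic 1 held 2 fragments and lay below the controls, whereas the other diabetic libraries held 270 and 343. Tpi1 itself spanned 10.3 to 12.4 FPKM in diabetic and 8.21 to 16.1 FPKM in control libraries. LOC100361008, like the complex IV subunit Cox5a, was at 10.8, 14.0 and 15.8 FPKM in the diabetic libraries, against 24.3, 22.8 and 0.712 FPKM in the controls, so control 3 alone was low. The parent-like entry Cox5a ranged over no more than 0.144 within a group. AABR07067506.1 was at 1.71, 21.7 and 2.75 FPKM in the diabetic libraries, against 3.18, 35.6 and 30.1 FPKM in the controls, with diabetic 2, control 2 and control 3 the high ones. AC120486.9 was at 7.27, 6.88 and 0 FPKM in the diabetic libraries, against 13.3, 7.82 and 9.43 FPKM in the controls. It was listed at 0 in diabetic 3, and its groups did not overlap. The long intergenic RNA AABR07022104.1 was at 17.2, 1.66 and 4.45 FPKM in the diabetic libraries, against 0, 0.773 and 20.4 FPKM in the controls, with at most 35 fragments in any library.

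All but 1 of the 6 short structural RNAs had a wide range in the control group alone. Rpph1, the catalytic RNA of ribonuclease P, which trims the ends of transfer RNA precursors, was at 1.76, 1.39 and 1.24 FPKM in the diabetic libraries, against 1.38, 26.1 and 1.31 FPKM in the controls. Control 2 alone was high, with 94 fragments against 5 to 10 elsewhere. The files place Rpph1 head to head with Parp2, the poly(ADP-ribose) polymerase 2 gene, on the opposite strand with an overlap of 19 nt. Parp2 was at 18.8, 24.5 and 18.2 FPKM in the diabetic libraries, against 22.3, 23.2 and 22.6 FPKM in the controls, and did not stand out in control 2. The Parp2 window of RefSeq is shown because these genes start next to each other in the table (chr15:26507409-26507708, GRCr8, plus strand). Capitals mark GGGCGG on the opposite strand, 151 bases before the Parp2 start. By the deposited positions Rpph1, 298 nt long, covers bases before the Parp2 start, so the marked letters may be part of Rpph1. Its place in GRCr8 was not tested.
Parp2: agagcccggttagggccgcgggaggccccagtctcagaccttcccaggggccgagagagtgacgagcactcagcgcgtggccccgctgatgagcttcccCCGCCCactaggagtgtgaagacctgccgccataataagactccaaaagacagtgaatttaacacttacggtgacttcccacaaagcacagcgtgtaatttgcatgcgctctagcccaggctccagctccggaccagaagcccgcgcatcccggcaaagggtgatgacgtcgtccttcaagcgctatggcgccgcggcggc

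Of the 3 entries of RF00026, the Rfam family of the U6 spliceosomal RNA, a pair lies 609 nt apart on chromosome 3, within the Crb2 gene and on opposite strands. The plus-strand entry (ENSRNOG00000061392) was at 18.2, 15.4 and 18.3 FPKM in the diabetic libraries, against 29.1, 3.09 and 13.9 FPKM in the controls, and the minus-strand entry (ENSRNOG00000057217) was at 4.42, 6.62 and 7.91 FPKM in the diabetic libraries, against 16.5, 0.773 and 12.4 FPKM in the controls. Control 2 was the lowest library of both, on 4 and 1 fragments, and Crb2 ranged over no more than 0.344. The entry on chromosome 1 (ENSRNOG00000058615) was at 3.44, 44.7 and 18.8 FPKM in the diabetic libraries, against 59.2, 4.64 and 62.7 FPKM in the controls, and was the only short RNA with a wide range in both groups. RF00100, the family of 7SK, which restrains transcription elongation, was at 18.4, 28.4 and 20.6 FPKM in the diabetic libraries, against 2.29, 9.67 and 29.4 FPKM in the controls, with control 1 alone below the rest. RF00580, described as the C/D box small nucleolar RNA 91A, a guide of RNA methylation, was at 10.2, 8.25 and 5.69 FPKM in the diabetic libraries, against 4.42, 0 and 5.03 FPKM in the controls, from at most 18 fragments, and its groups did not overlap. It lies in Tsr1, which ranged over no more than 0.094, and 617 nt from another RF00580 entry that was not chosen. As the labels name no strand marking, reads of these RNAs and of the genes around them cannot be told apart by strand.

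The 8 unnamed entries have no gene symbol in the table and are told apart here by their place. The entry on chromosome 20 (19483982 to 19485844, plus strand) was the most abundant gene of the set. It carries a domain of proton-conducting membrane transporters, the kind found in complex I subunits. Its levels were 293.7, 320.2 and 253.5 FPKM in the diabetic libraries, against 21.8, 314.0 and 337.7 FPKM in the controls, and control 1 alone was low. In control 1 the mitochondrial complex I gene Mt-nd5 was also the lowest of the 6 at 534.1 FPKM, against 932.9 to 1171 FPKM in diabetic and 847.9 and 1022 FPKM in the other control libraries, whereas Mt-nd4 was the highest there at 253.7 FPKM, against 166.9 to 230.2 FPKM in diabetic and 151.5 and 162.0 FPKM in the other control libraries. Mt-nd2 was lowest in control 1 too, at 2302 FPKM. It measured 2703 to 3582 FPKM in diabetic and 2877 and 3319 FPKM in the other control libraries. Whether reads were divided between these genes and the entry on chromosome 20 was not tested. The entry on chromosome 8 (118440682 to 118445507, minus strand), with the domain of the ribosome-associated protein TMA7, was at 7.66, 36.2 and 8.75 FPKM in the diabetic libraries, against 10.9, 16.4 and 220.2 FPKM in the controls. Control 3 alone was high, and Tma7, 0.625 Mb away, was at 28.6 to 45.9 FPKM in diabetic and 31.9 to 53.9 FPKM in control libraries. Control 3 was also the library with the highest lens markers, whose part in this value was not tested.

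A run of 3 unnamed entries on the minus strand of chromosome 2, between 236100818 and 236115920, was on in the same libraries. The first rested on 2, 1494 and 0 fragments in the diabetic libraries, against 1891, 1 and 1 in the controls. Its neighbour 251 nt away, also chosen, rested on 0, 418 and 0 fragments in the diabetic libraries, against 419, 0 and 0 in the controls. The entry 823 nt further, too low to be chosen, rested on 0, 537 and 0 fragments in the diabetic libraries, against 360, 0 and 0 in the controls. Diabetic 2 and control 1 thus held nearly all fragments of all 3 entries, at 17.9 and 22.5 FPKM for the first and 19.5 FPKM in each for its neighbour. Adjacent entries on a strand are not independent members. The entry on chromosome 10 (31946652 to 31978334, minus strand), of 26321 nt and with a domain of the FAM27 family, was at 8.22, 6.55 and 7.61 FPKM in the diabetic libraries, against 0.123, 12.2 and 0.113 FPKM in the controls. Control 2 was above every diabetic library and the other controls were far below, on 55 and 38 fragments against 2920 to 4117 elsewhere. The entry on chromosome 6 (91475236 to 91476652, minus strand), with a ribosomal protein L44 domain, was at 0.208, 7.87 and 7.61 FPKM in the diabetic libraries, against 0.310, 16.1 and 0 FPKM in the controls. Control 2 was the highest of the 6, and diabetic 1 was as low as the other controls. Rpl36a, of the same protein family, was at 66.8 to 98.6 FPKM in diabetic and 103.2 to 119.9 FPKM in control libraries. The remaining entry on chromosome 2, at 18596230 to 18597299, was low in diabetic 1 alone, at 0.540, 13.4 and 15.2 FPKM in the diabetic libraries, against 14.5, 8.12 and 7.07 FPKM in the controls. The entry on chromosome 17 (14165862 to 14186556, plus strand) was listed at 0 in control 3 alone, at 5.11, 9.86 and 7.17 FPKM in the diabetic libraries, against 3.91, 13.3 and 0 FPKM in the controls.

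The 40 genes lay on 16 chromosomes, with 8 on chromosome 1 and 5 each on chromosomes 2 and 3, and 8 lay within 1 Mb of another chosen gene, a count for which no background was computed. Another entry averaging 1 FPKM or more overlapped 6 of the 40, again with no background computed. Close to the limit, the genes just inside were the plus-strand RF00026 entry of chromosome 3 with a range of 3.04, AABR07067506.1 with 3.33 and Wdr54 with 3.36. Just outside were Mir324 with 2.95 and LOC691427 and LOC103692173 with 2.92 each. The 10 genes left out by name included Ndufa1, a complex I subunit, at 65.4, 0.554 and 0.745 FPKM in the diabetic libraries, against 0.827, 1.16 and 1.46 FPKM in the controls, where diabetic 1 alone was high. They also included the ribosomal protein genes Rplp2, Rps6 and Rps9 and the lens crystallins Cryaa, Crybb2, Cryba1, Cryba4, Crygs and Crygc, all 6 of which were highest in control 3.

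The wide ranges bear on the comparison of diabetic with control retinas. With limma on log2(FPKM + 0.5) and Benjamini-Hochberg adjustment over the 16363 genes averaging 0.5 FPKM or more, 0 genes passed an adjusted p of 0.05 (0% of all, and 0 of the 40). At an unadjusted p under 0.05, 2 of the 40 were found, where the share over all genes was 19.9%. Hprt1 averaged 1.09 ± 0.255 FPKM in diabetic and 19.8 ± 21.9 FPKM in control retinas (SD, n = 3 each). Its log2 difference, diabetic minus control, was -2.90 with a standard error of 0.90, an unadjusted p of 0.0144 and an adjusted p of 0.170 in limma. Selenow averaged 101.0 ± 149.6 FPKM in diabetic and 300.1 ± 54.8 FPKM in control retinas (SD, n = 3 each). For it limma gave -3.02 on the log2 scale, a standard error of 1.14, an unadjusted p of 0.0327 and an adjusted p of 0.214. Groups did not overlap for 3 of the 40, Hprt1, AC120486.9 and RF00580, against 26.2% of all genes. The median size of the log2 difference was 1.20 over the 40 and 0.18 over all genes, and the median standard error 1.12 and 0.146. The 40 were chosen for a wide spread within a group, which limma divides by. Their large standard errors, low share of small p-values and rare separation of the groups were therefore built into the choice and are no result. The difference was above 0 for 24 of the 40, against 50.1% of all genes. Values on this scale understate the change of low genes, and each rests on 3 rats per group.

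A call arose among the 40 when a library was left out. Without diabetic 1, 4 genes passed limma's adjusted p of 0.05, among them RGD1563601 with a log2 difference of 3.78 and an adjusted p of 0.0130. Without diabetic 2, NEWGENE_1310561 alone passed, at 4.22 and an adjusted p of 0.00924 in limma. Without control 2, the unnamed entry on chromosome 10 alone passed, at 3.68 and an adjusted p of 0.0105 in limma. In each case the library left out was the one that stood apart within its group, so these calls follow from removing it and are not findings between the groups.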

How the data were processed

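Poly-A RNA of 6 retinas, 1 library per separately weighed rat, was made into libraries with a kit whose name includes no strand marking and sequenced from both ends of each fragment, per the labels' protocols. Per the submitters' processing notes, reads were aligned by HISAT2 2.0.5, while the sources used here name no counting program, genome build or annotation. The authors deposited FPKM per gene with length, position, biotype and description, per the file headers. FPKM times length came out as whole fragments within 0.05 for 100% of values in each library.

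Members and lists were chosen with earlier results of these data known. Chosen genes were found by the stated limits. All genes averaging 0.5 FPKM or more entered limma 3.58.1 (R 4.3.3) on log2(FPKM + 0.5), diabetic minus control, with eBayes trend, a two-sided moderated test and Benjamini-Hochberg adjustment at 0.05; the code was tested on simulated data. FPKM were not scaled further, and no library was dropped or imputed. Floors cover counting error only, and limma's standard errors and p-values cover the spread between animals.

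By rule, named genes were those with a symbol and the largest gaps of each library, up to 4 in each direction, the 5 most abundant, and 3 on either side of the range limit. The part of that rule on protein identity could not be applied, as no protein sequences were at hand. The remaining chosen genes, second entries, neighbours and family members were named after their values were seen. Promoter windows are RefSeq sequences of GRCr8 matched by symbol; their coordinates are not those of the deposited table. Alternatives were other pseudocounts, minimum means, ranges, TPM, voom, a replicate block and leaving out each library. Figures were drawn with matplotlib 3.10.9.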

Additional observations from a re-analysis of the deposited data

How the results depend on the processing

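The number of chosen genes depends on the limits and on the pseudocount. It was 40 as reported, 105 with a minimum mean of 2 FPKM, 150 with no minimum mean, 101 after rescaling to TPM, under which the limit of 5 is a lower bar, and 84 with a range above 2, and these sets held all 40. It was 18 with a minimum mean of 10 FPKM and 24 with a range above 4. When a library was left out it was between 31 and 38, of which 30 to 35 were among the 40. A pseudocount of 0.1 gave 53, with all 40 among them, and a pseudocount of 1 gave 38, all among the 40. Genes with a library on its own numbered 17 as reported. They were 43 and 53 with a minimum mean of 2 FPKM and with none, 44 with TPM and 34 with a range above 2. They were 10 with a minimum mean of 10 FPKM, 6 with a range above 4, and 16 to 20 when a library was left out. Pseudocounts of 0.1 and 1 gave 24 and 14. The range of single genes was compared with the SD of the same 3 log2 values that form it. It moved by more than that SD in 0 of 40 with a pseudocount of 1 or TPM and in 1 with a pseudocount of 0.1. When a library was left out it did so in 3 to 8. That SD is large by the choice of the genes, so these counts do not measure stability. With a pseudocount of 1, RF00580 fell from 3.47 to 2.59 and the plus-strand RF00026 entry of chromosome 3 from 3.04 to 2.88, below the limit of 3. The limma count of 0 genes called was 2 with voom on the rebuilt fragments, Smarcd1 and Asns, neither of them chosen, and between 0 and 4 when a library was left out. Other settings of limma gave 0. The 3255 genes at an unadjusted p under 0.05 became 2066 to 4015 when a library was left out, with the lowest count without diabetic 2. Of the 3255, 1498 were higher in diabetic retina, against 3009 of 3701 with TPM, which shifted the median of all log2 differences by 0.13. The 2 chosen genes at an unadjusted p under 0.05 became 4 with voom, 4 with the replicate block and 3 to 7 when a library was left out. The labels do not pair libraries by number, and deviations of same-numbered libraries correlated at -0.042, -0.055 and 0.010; with the replicate block limma called 0 genes, found 2790 at an unadjusted p under 0.05, and its smallest adjusted p was 0.227. The causes of these changes were not tested. Depth limits the entries with few fragments, of which RF00580 had 18 in its highest library and 6 of the 40 genes had fewer than 100 in theirs.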
